A study of Homo sapiens with 6 samples.

Results

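Chemokines, interleukins and the NF-kB factors that switch them on form a module of 41 genes, chosen by symbol from a written list. All 41 symbols were found in the table, under 42 gene identifiers because SOD2 has 2, among 35639 genes in all. The list joins chemokines, the IL-1 family, other interleukins and colony-stimulating factors, receptors, the 5 NF-kB subunits, inhibitors of the pathway and genes that it induces. Of the 42 identifiers, 40 had a mean of at least 10 over the 5 libraries compared and were tested among 16259 genes; CXCL14 and IL33 were below this mean.

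The libraries are bulk RNA-seq of hFOB 1.19, an osteoblastic line from a human fetus. Its immortalising factor depends on temperature, and at 34 °C the cells grow as osteoprogenitors. Cells had been transduced with a lentiviral vector, either empty (EV), or carrying HA-tagged wild-type H3.3 (WT), or carrying HA-tagged H3.3-G34W (G34W), the histone mutation of giant cell tumour of bone. All were kept at 34 °C and collected on day 15 after transduction, with 2 libraries per group. The study's methods describe hFOB cells from several independent infections and define replicates as biological ones, such as separate wells, within an experiment. For RNA-seq they state only that cells were collected in duplicate, not from which infections, so the p-values measure only the spread between these libraries, which may be technical in part. The transgenes were made from Drosophila cDNA, and their level was not analysed here. The library titles set the groups. The genotype field of the labels gives WT and G34W the other way round, and if it were right every direction between these groups would reverse, and their comparisons with EV would change places.

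Libraries that stood apart are named before the results. EV replicate 1 was listed at 0 for 80.5% of genes, against 40.7% to 46.0% in the other 5 libraries, and for 31 of the 42 member identifiers. It was left out, so EV is represented by EV replicate 2 alone, and its spread was assumed to be that of the other groups. G34W replicate 1 held markers of pluripotent stem cells. The 12 genes of that list summed to 66576 normalised units in it, with POU5F1 the most abundant at 19441 and none at 0, and to between 964 and 1142 in the other 4 libraries. The values were estimated counts normalised by the authors, and the depth behind them is unknown.

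The osteoblastic label was checked against 8 identity genes, which summed to between 191040 and 261130 in the 5 libraries, led by COL1A2. Nearly all of each sum came from COL1A1, COL1A2 and SPARC, which other mesenchymal cells also express. RUNX2, a regulator of the osteoblast lineage, was 236 in G34W replicate 1 and 387 to 573 in the other 4 libraries. ALPL, the bone alkaline phosphatase, was 428 in EV replicate 2, 245 and 236 in WT and 1216 and 107 in G34W, so its G34W libraries were the highest and the lowest. The later genes SP7 (at most 6.03) and BGLAP (4.08 to 44.9) were low, and IBSP was listed at 0 in 4 of the 5 libraries and was 2.499 in EV replicate 2. Leukocytes are a usual source of these cytokines. Of 9 myeloid markers, which summed to between 1091 and 1447, CD68 was the most abundant (850.4 to 1268), and TYROBP was listed at 0 in all 5 libraries. The 6 lymphocyte markers summed to between 13.6 and 33.6, with CD3D and CD2 at 0 in all 5. The 6 endothelial markers summed to between 889 and 1437, of which TIE1 gave 716 to 1301 and CDH5 at most 10.9.

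In resting cells, NF-kB dimers of REL-family subunits are held in the cytoplasm by IkB proteins. Signals from IL-1, TNF and Toll-like receptors lead to degradation of IkB, and the freed dimers enter the nucleus and bind kappa B sites near genes of chemokines, interleukins and adhesion molecules. Among the induced genes are NFKBIA and TNFAIP3, whose products shut the signal down. In bone, stromal chemokines and colony-stimulating factors attract and support the monocytes from which osteoclasts form.

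Upstream sequences are shown because 5 CXC chemokine genes lie in 1 cluster on chromosome 4 and carry the same kappa B match at a like distance from the start. RefSeq promoter windows were found for 33 of the 41 members (46 windows). The kappa B consensus, named here without its letters, was searched on both strands of the 250 bases before each start. It was present in 16 of the 46 windows (34.8%), against 5.21% of all 35116 windows. By gene it was found for 15 of 33, against 1715 of 27305. The list was chosen to hold NF-kB factors and targets, so a higher share was built into it. Related genes with like stretches were counted separately. The stretches run 5′ to 3′ on the strand of the gene from 120 to 41 bases before its start, on GRCh38.p14. Capitals mark the consensus, and in the 5 chemokine genes they mark 2 overlapping matches. The CSF2 stretch holds no match and has no capitals, and it is shown for comparison because CSF2 was lower in both G34W libraries. TNFAIP3 and IL32, also lower in both G34W libraries, each had matches, so the lower genes were found with and without a match. CXCL1 is at chr4:73869273-73869352 (plus strand), CXCL2 at chr4:74099236-74099315 (minus), CXCL3 at chr4:74038730-74038809 (minus), CXCL5 at chr4:73998718-73998797 (minus) and CXCL6 at chr4:73836558-73836637 (plus). NFKBIA is at chr14:35404790-35404869 (minus), TNFAIP3 at chr6:137867139-137867218 (plus) and CSF2 at chr5:132073669-132073748 (plus).
CXCL1: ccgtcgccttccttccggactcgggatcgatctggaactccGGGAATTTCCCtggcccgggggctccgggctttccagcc
CXCL2: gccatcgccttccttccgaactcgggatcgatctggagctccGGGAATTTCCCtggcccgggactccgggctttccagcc
CXCL3: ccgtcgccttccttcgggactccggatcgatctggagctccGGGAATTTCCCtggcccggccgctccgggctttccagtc
CXCL5: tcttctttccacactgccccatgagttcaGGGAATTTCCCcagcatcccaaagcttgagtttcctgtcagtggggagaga
CXCL6: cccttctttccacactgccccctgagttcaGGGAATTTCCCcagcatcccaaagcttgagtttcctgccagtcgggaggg
NFKBIA: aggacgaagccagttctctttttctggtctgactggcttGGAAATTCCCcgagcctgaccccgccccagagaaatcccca
TNFAIP3: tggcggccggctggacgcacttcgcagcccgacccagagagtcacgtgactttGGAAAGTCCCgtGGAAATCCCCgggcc
CSF2: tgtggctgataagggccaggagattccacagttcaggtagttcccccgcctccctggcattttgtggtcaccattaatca

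The 3 stretches of CXCL1, CXCL2 and CXCL3 resemble each other around the match, and those of CXCL5 and CXCL6 resemble each other. By list, a match was found in 5 of 8 CXC chemokine genes with a window, 1 of 3 CC chemokine genes, 3 of 4 NF-kB subunit genes, both feedback inhibitors, 2 of 4 effectors, 2 of 3 other interleukins and colony-stimulating factors, 0 of 5 genes of the IL-1 family and 0 of 4 receptors. A match describes the letters in a window and does not show that a factor bound there. A missing match to this consensus does not show that a site is missing.

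Levels were compared between genes per kb of the canonical transcript, averaged over the 5 libraries. CXCL8, the neutrophil chemokine also called IL-8, was highest among the members, with 29897 units per kb, above 99.4% of the genes tested. IL1B (8196 units per kb), CXCL1 (7864) and NFKBIA (6404) came next and lay above 96.8% to 97.6% of genes. CCL2, SOD2, CSF3, ICAM1, CSF2 and TNFRSF1A followed between 5825 and 2575 units per kb. This order rests on the transcript lengths used. Before division by length, the mean of SOD2 (ENSG00000112096, 14167 bases) was 58868, above the 49091 of CXCL8 (1642 bases). The lowest members tested were CXCL16, REL and IL7, at 40.8, 42.1 and 42.9 units per kb. The ranges of neighbours in this order overlapped across the 5 libraries, except that CXCL8 (at least 22087 units per kb) lay above IL1B (at most 10444) and CXCL12 (at least 302) above IL1RAP (at most 239.98). CXCL1 and CXCL2 shared 165 of the 31-base words of their canonical transcripts (14.4% of those of CXCL1), and CXCL2 and CXCL3 shared 100, so values of these genes may be partly exchanged by the quantification.

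**Figure D1:**
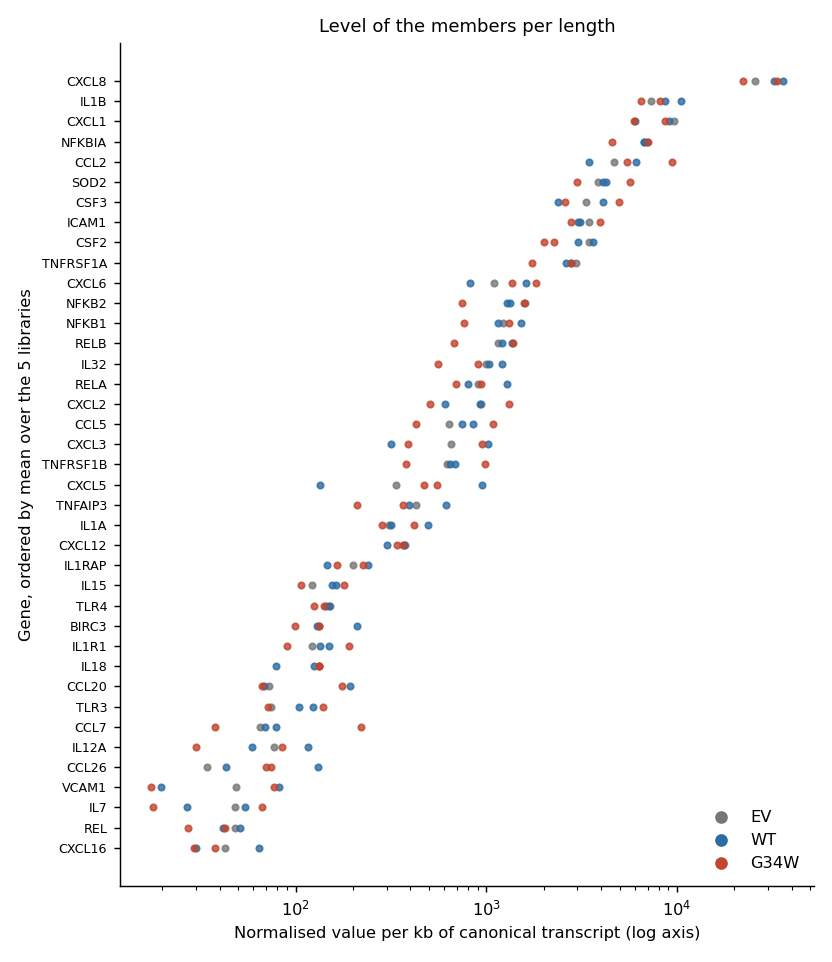
Normalised value per kb of canonical transcript on a log axis for the 39 member genes tested with a length, ordered by the mean of the 5 libraries; each point is 1 library, coloured by group. CXCL8 stands above all other members, and the groups are mixed along most lines.

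The question asked of the module was whether mutant H3.3 changed it. No member passed an adjusted p of 0.05 in limma in any of the 3 comparisons, and no gene of the 16259 tested did (0% of genes called in G34W against WT, 0% in G34W against EV and 0% in WT against EV). At an unadjusted p under 0.05, 2 of 40 members were called in G34W against WT, beside 2.7% of all genes, and both were lower in G34W. In G34W against EV it was 1 of 40, beside 1.95% of genes, and in WT against EV 0 of 40, beside 0.966%. These shares of members are few genes and close to the background, and they moved with the settings. In G34W against WT the count was 0 without the variance trend and 8 without G34W replicate 2, where 9.29% of all genes were called, and in G34W against EV it was 0 under 5 of 9 alternatives. The comparisons share libraries, so they are not independent of each other. The median log2 difference of the members was -0.17 for G34W against WT, where that of all genes was -0.06, and 29 of 40 members were negative (72.5%, beside 56.9% of all genes). Without G34W replicate 1 it was 13 of 40 (32.5%, beside 43.5% of all genes). The member median was -0.07 for G34W against EV (all genes -0.03) and 0.09 for WT against EV (all genes 0.02). That of G34W against EV was 0.33 without G34W replicate 1 and -0.42 without G34W replicate 2, so its direction rested on single libraries. With a replicate block it was 0.098, and that of WT against EV was 0.34. The 95% interval of a member's difference between G34W and WT reached a median of 0.797 log2 units to each side. In bulk RNA, fewer cells of a type and less RNA per cell cannot be told apart.

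Over members, the median absolute log2 difference was 0.683 between the G34W libraries and 0.271 between the G34W and WT means, beside 0.413 and 0.235 over all genes. Means of 2 libraries vary less than single ones, so the 2 measures are not on an equal footing. Replicate 1 was the lowest of the 5 libraries for 30 of 40 members (75%), against 40% of all genes, and was the highest for none, against 20% of all genes. Replicate 2 was above replicate 1 for 38 of 40 members (95%, beside 65.4% of all genes), with a median log2 difference of 0.683, and the same median over all genes was 0.205. The median member was 0.58 log2 units below the WT mean in G34W replicate 1 and 0.19 above it in G34W replicate 2. Without G34W replicate 1, the member median of G34W against WT was therefore 0.19, and without G34W replicate 2 it was -0.58. The pluripotency markers of replicate 1 moved with this pattern, and their part in it was not tested. Between the WT libraries the median absolute log2 difference was 0.49 for members and 0.364 for all genes.

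**Figure D2:**
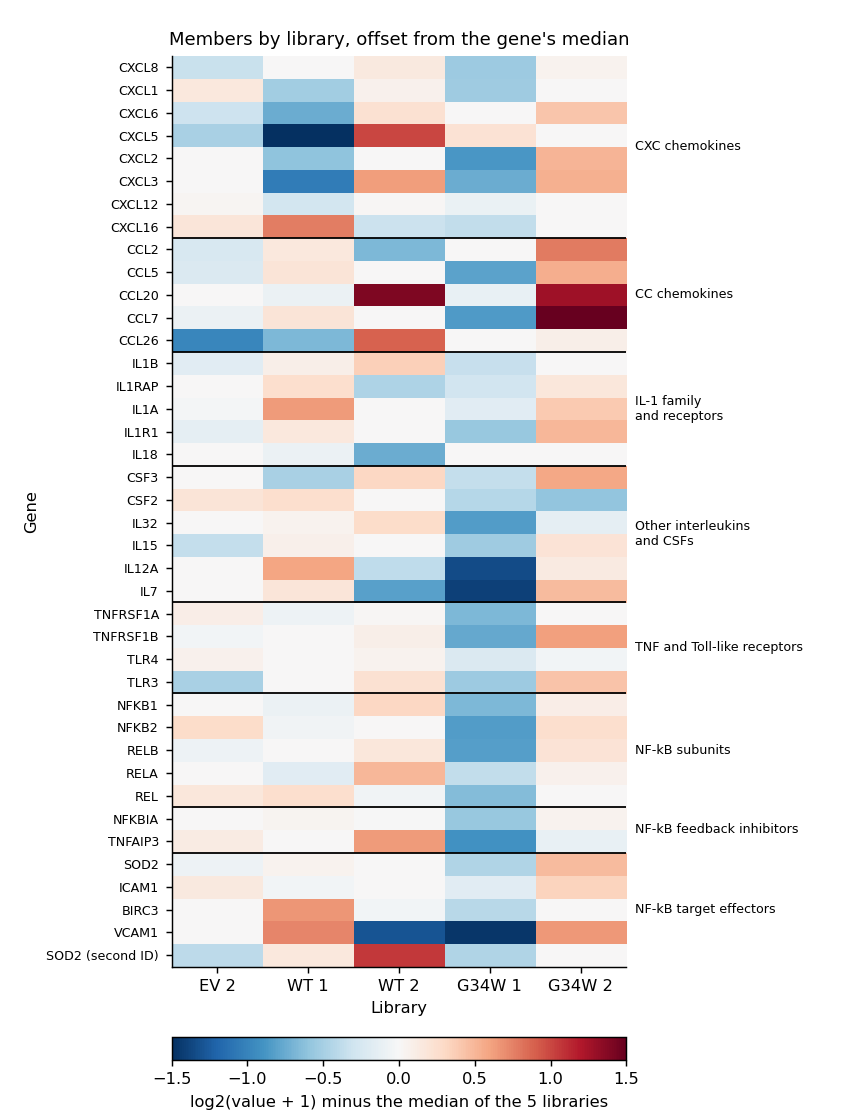
Heatmap of the 40 member identifiers tested (rows, grouped by role) in 5 libraries (columns); colour is log2(value + 1) minus the median of the 5 libraries for that gene, and the colours saturate at the ends of the scale shown. The column of G34W replicate 1 is blue for most genes, and that of G34W replicate 2 is red for most.

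**Figure D3:**
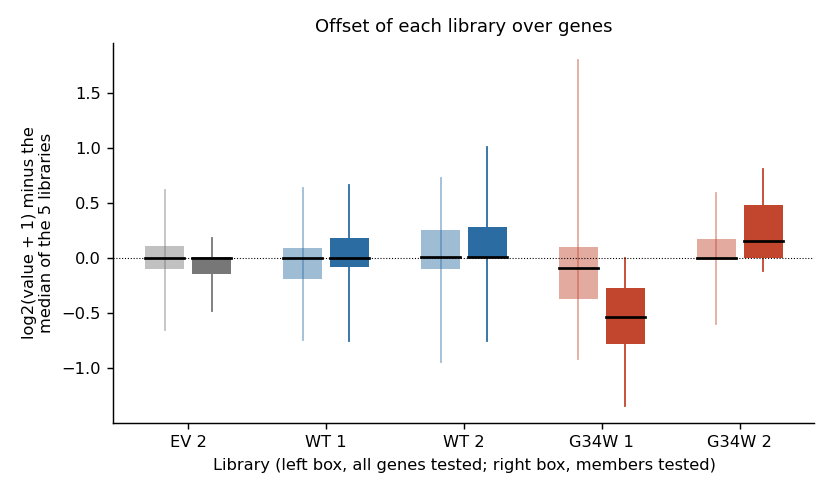
Offset of each library from the median of the 5 libraries in log2 units, over the 16259 genes tested (left box) and the 40 member identifiers (right box); boxes span the quartiles, lines the 5th to 95th percentiles and black bars the medians. The member median lies at -0.54 in G34W replicate 1 and at 0.15 in G34W replicate 2.

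Among the CXC chemokines, which draw neutrophils and other leukocytes, 8 of 9 were tested and none was called. CXCL8 was 42074 in EV replicate 2, 53064 and 58898 in WT and 36267 and 55149.9 in G34W. Its log2 difference between G34W and WT was -0.32 (SE 0.30, limma adjusted p 0.9998), and the G34W and WT libraries overlapped. It was -0.02 without G34W replicate 1 and -0.62 without G34W replicate 2. CXCL5 was 822 in EV replicate 2, 329 and 2309 in WT and 1338 and 1149 in G34W. The WT libraries were the lowest and the highest of the 5, 7.02-fold apart, and the difference was 0.51 (SE 0.72, limma adjusted p 0.9998). It was -0.90 without WT replicate 1, so its direction rested on that library. CXCL12, which retains haematopoietic cells in the marrow and signals through CXCR4, was 721 in EV replicate 2, 583 and 714 in WT and 658 and 708 in G34W, a difference of 0.08 (SE 0.30, limma adjusted p 0.9998) that was -0.06 without WT replicate 1. It varied least of the CXC chemokines, by 1.24-fold between the libraries. The clustered genes were all higher in WT replicate 2 than in WT replicate 1: CXCL1 at 10623 against 7079, CXCL3 at 1092 against 341 and CXCL6 at 2473 against 1257, with CXCL2 at 1033 against 679. CXCL16, which is membrane-anchored, lay between 67.8 and 149. CXCL14 was at most 11.8 in any library.

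The 5 CC chemokines attract monocytes, T cells and eosinophils. CCL2, the main attractant of monocytes, was 3444 in EV replicate 2, 4534 and 2547 in WT and 4068 and 6988 in G34W. Its log2 difference between G34W and WT was 0.65 (SE 0.36, limma adjusted p 0.9998), and the libraries overlapped. Leaving out single libraries gave 0.23 (WT replicate 2) to 1.07 (WT replicate 1). CCL7, a neighbour of CCL2 on chromosome 17, was 52.6 in EV replicate 2, 64.1 and 56.0 in WT and 30.7 and 178 in G34W. The G34W libraries held both the lowest and the highest value, 5.79-fold apart, and the difference was 0.31 (SE 0.83, limma adjusted p 0.9998). It was -0.94 without G34W replicate 2 and 1.55 without G34W replicate 1. CCL5 ranged from 553 to 1406, CCL20 from 55.7 to 161 and CCL26 from 16.4 to 62.3, each with overlapping groups.

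Of the IL-1 family and its receptors, 5 of 6 genes were tested. IL1B, the secreted cytokine that signals through IL1R1, was 10954 in EV replicate 2, 13068 and 15739 in WT and 9693 and 12302 in G34W. Both G34W libraries were below both WT libraries, and EV replicate 2 lay among those of G34W. The log2 difference was -0.39 (SE 0.26, limma adjusted p 0.9998), and it was -0.22 without G34W replicate 1 and -0.26 without WT replicate 2. IL1R1, the receptor, was 631 in EV replicate 2, 772 and 693 in WT and 467 and 982 in G34W. Its G34W libraries were the lowest and the highest, and the difference was -0.11 (SE 0.38, limma adjusted p 0.9998). Without G34W replicate 1 it was 0.42. IL1A lay between 571 and 999, IL1RAP between 692 and 1139 and IL18 between 87.5 and 149. IL33, an alarmin of barrier tissues, was at most 9.13.

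The other interleukins and colony-stimulating factors were 6 genes, all tested, of which 5 had a negative difference between G34W and WT (83.3%, beside 56.9% of all genes). Against the WT mean, all 6 were lower in G34W replicate 1 (63.2% of all genes) and 2 of 6 in G34W replicate 2 (43.5% of all genes). Their medians were -0.787 and 0.0999, beside -0.167 and 0.0424 over all genes. CSF2, which encodes GM-CSF and supports myeloid cells, was 2731 in EV replicate 2, 2839 and 2392 in WT and 1782 and 1582 in G34W. Both G34W libraries were below the other 3, and they lay close to each other. The log2 difference from WT was -0.63 (SE 0.25, unadjusted p 0.0332, limma adjusted p 0.9998) and from EV -0.70 (SE 0.31, unadjusted p 0.0493, limma adjusted p 0.9998). The difference of WT from EV was -0.07 (SE 0.31, unadjusted p 0.831 in limma). The unadjusted p of the difference from WT was under 0.05 in 6 of 10 alternatives and ran to 0.208 without WT replicate 1, and that of the difference from EV was under 0.05 in 3 of 9 and ran to 0.105 without G34W replicate 2. Without WT replicate 2 the difference of WT from EV was 0.06. IL32, an inflammatory cytokine, was 816 in EV replicate 2, 847 and 989 in WT and 457 and 742 in G34W. Both G34W libraries were again below the other 3, and the difference from WT was -0.65 (SE 0.33, limma adjusted p 0.9998). It was -0.30 without G34W replicate 1, the library with pluripotency markers, and -0.999 without G34W replicate 2. CSF3, which encodes G-CSF, ranged from 3579 to 7460.0, IL15 from 216 to 361, IL12A from 43.3 to 168 and IL7 from 36.2 to 135.

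The 4 receptors were TNFRSF1A and TNFRSF1B, which bind TNF, and TLR3 and TLR4, which sense double-stranded RNA and lipopolysaccharide. Their log2 differences between G34W and WT were all negative, beside 56.9% of all genes, and between -0.30 and -0.12. All 4 were lowest in G34W replicate 1, as were 40% of all genes. Without that library 3 of 4 differences were positive, with a median of 0.168, while 43.5% of all genes were negative. TNFRSF1A was lowest in G34W replicate 1 at 3769 and between 5691 and 6443 in the other libraries. TNFRSF1B was 1393 in G34W replicate 1 and 3646 in G34W replicate 2, with the other 3 libraries between 2304 and 2519. TLR4 varied by 1.22-fold, from 1573 to 1913, and both G34W libraries were below the other 3. TLR3 ranged from 430.0 to 842.

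All 5 NF-kB subunits were lowest in G34W replicate 1, as were 75% of members and 40% of all genes. NFKB1, which gives p50, was 4946 in EV replicate 2, 4667 and 6138 in WT and 3109.7 and 5308 in G34W. Its log2 difference between G34W and WT was -0.40 (SE 0.31, limma adjusted p 0.9998), and it was -0.01 without G34W replicate 1 and -0.78 without G34W replicate 2. RELA, which gives p65, was 2268 in EV replicate 2, 2022 and 3210.0 in WT and 1751 and 2372 in G34W. The difference was -0.32 (SE 0.31, limma adjusted p 0.9998), with overlapping groups, and it was 0.01 without WT replicate 2 and -0.66 without WT replicate 1. NFKB2 ranged from 2241 to 4817, RELB from 1531 to 3125 and REL from 303 to 565.

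NFKBIA and TNFAIP3 close the loop, the former by binding NF-kB dimers and the latter by editing ubiquitin on upstream proteins. NFKBIA was 10518 in EV replicate 2, 10862 and 10489 in WT and 7121 and 10930.4 in G34W. Only G34W replicate 1 was apart, and the log2 difference of -0.27 (SE 0.27, limma adjusted p 0.9998) was 0.03 without it. TNFAIP3 was 1995 in EV replicate 2, 1835 and 2851 in WT and 974 and 1696 in G34W. Both G34W libraries were below the other 3, and the difference from WT was -0.83 (SE 0.35, unadjusted p 0.0394, limma adjusted p 0.9998). It was -0.43 without G34W replicate 1 and -0.51 without WT replicate 2, and its unadjusted p was under 0.05 in 6 of 10 alternatives, with 0.279 as the highest.

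Of the effectors, SOD2 is the mitochondrial superoxide dismutase, ICAM1 and VCAM1 are adhesion molecules for leukocytes and BIRC3 restrains cell death. SOD2 was listed under 2 identifiers that share a symbol, so reads could be divided between them. The main one, ENSG00000112096, ranged from 42114 in G34W replicate 1 to 80167 in G34W replicate 2. The other, ENSG00000285441, was 65.6 in EV replicate 2, 96.6 and 181 in WT and 63.0 and 86.4 in G34W. Its G34W libraries were below those of WT and overlapped with EV replicate 2, and the log2 difference from WT was -0.84 (SE 0.56, limma adjusted p 0.9998). It was -0.38 without WT replicate 2 and -1.29 without WT replicate 1. VCAM1 was 151 in EV replicate 2, 253 and 61.3 in WT and 54.3 and 238 in G34W. The WT and G34W libraries each spanned most of the 4.65-fold range, and the difference was -0.13 (SE 0.83, limma adjusted p 0.9998). It was 0.89 without WT replicate 1 and 0.93 without G34W replicate 1. ICAM1 ranged from 8216 to 11697 and BIRC3 from 684 to 1441.

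**Figure D4:**
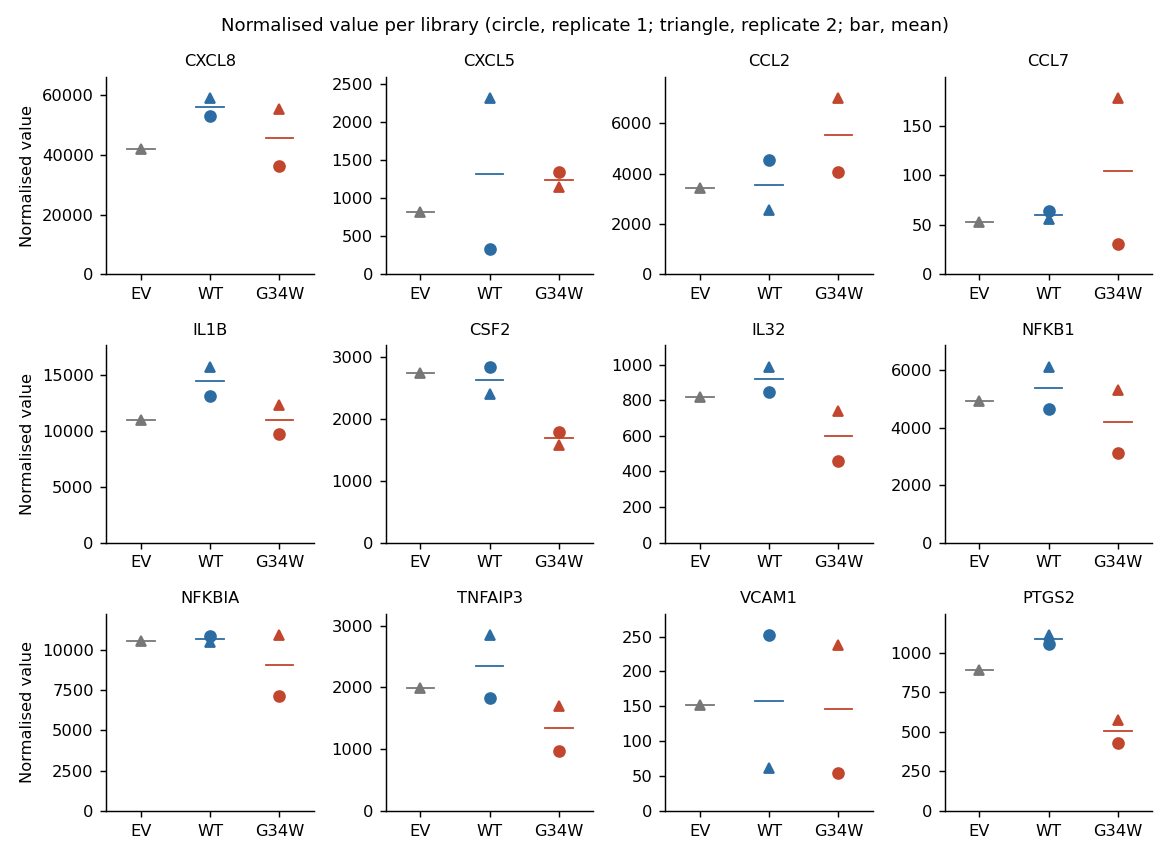
Normalised value in each library for 11 members and PTGS2, with a linear axis from 0; circles are replicate 1, triangles replicate 2 and bars the group mean, and EV has 1 library. For CSF2, TNFAIP3, IL32 and PTGS2 both G34W points lie below the other 3 points, while for CCL7 and VCAM1 the G34W points lie far apart. Over all genes tested, 9.55% had both G34W libraries below the other 3, beside 10% of members tested.

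Counted without a test, both G34W libraries were below both WT libraries for 6 of 40 members (15%), beside 14.7% of all genes, and above both for 1 of 40 (2.5%), beside 11.6%. The 6 were CSF2, TNFAIP3, IL32, IL1B, TLR4 and the second SOD2 identifier, and the 1 was IL18. The share below is that of the background. Both G34W libraries were below all 3 of EV replicate 2 and WT for 4 of 40 members (10%), beside 9.55% of all genes. They were above all 3 for 0 of 40, beside 7.87%. The 4 were CSF2, TNFAIP3, IL32 and TLR4, and this share is also that of the background. With 2 libraries against 2, a two-sided exact permutation test can give no p below 0.333.

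Genes of the same pathway outside the module were read from 4 lists, of which 81 were tested. Of these, 2 (LCN2 and IL1RL1) reached the mean of 10 only through the G34W libraries, 1 (CXCR2) only through WT and 1 (LTB) only through EV replicate 2, and no member of the module did so through 1 group. None passed an adjusted p of 0.05 in limma in any comparison. In G34W against WT, 2 of 81 had an unadjusted p under 0.05 (2.47%, beside 2.7% of all genes), both lower in G34W. In that comparison 59 of 81 differences were negative (72.8%, beside 56.9% of all genes), with a median of -0.17. G34W replicate 1 was the lowest library for 54.3% of these genes, beside 40% of all genes. Without it, 32 of 81 were negative (39.5%, beside 43.5% of all genes) and the median was 0.063 (all genes 0.042). Without the 4 genes that passed the filter through 1 group, 59 of 77 were negative with all libraries, with a median of -0.17. In G34W against EV it was 2 of 81 (beside 1.95% of all genes), PTGS2 and EFNA1 (log2 differences of -0.84 and -1.5), and in WT against EV also 2 of 81 (beside 0.966%), IL24 (2.24) and MAP3K8 (-1.16). Under the alternatives that kept all 5 libraries, the count was 3 or 4 in G34W against WT, beside 1.9% to 4.4% of all genes. In G34W against EV it was 0 to 3, beside 1.59% to 2.74%, and in WT against EV 1 to 4, beside 0.812% to 2.32%. These counts moved further when single libraries were left out. PTGS2, EFNA1, MAP3K8, CXCR2 and LTB are named after their values were seen. Medians of single lists are those of G34W against WT, with and without G34W replicate 1. Of the signalling chain, which runs from receptors to the IkB kinases, 28 of 28 were tested, with a median of -0.13 (0.084 without it), and none had an unadjusted p under 0.05 in G34W against WT or G34W against EV. TRAF1 had a log2 difference of -0.74 (SE 0.42, limma adjusted p 0.9998), at 197 and 380.0 in G34W and 369 and 565 in WT, and IRAK3 one of 0.60 (SE 0.48, limma adjusted p 0.9998). TRAF1 was at -0.26 without G34W replicate 1 and -1.21 without G34W replicate 2, and IRAK3 at 0.046 without WT replicate 1 and 1.15 without WT replicate 2. Of the other inhibitors and cofactors, all 12 were tested with a median of -0.23 (0.023 without G34W replicate 1). ZFP36, which destabilises cytokine mRNAs, was 145 and 244 in G34W, 104 and 126 in WT and 146 in EV replicate 2. Its difference from WT was 0.71 (SE 0.47, limma adjusted p 0.9998). BCL3 was 211 and 324 in G34W, 190 and 177 in WT and 240 in EV replicate 2, and differed from WT by 0.51 (SE 0.41, limma adjusted p 0.9998). For both genes EV replicate 2 lay between the G34W libraries. Without G34W replicate 2 the differences of ZFP36 and BCL3 from WT were 0.34 and 0.20, and without G34W replicate 1 they were 1.09 and 0.82.

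Of 35 other cytokine and NF-kB target genes, 28 were tested, with a median of -0.21 (0.026 without G34W replicate 1). LCN2 was listed at 0 in EV replicate 2, was 5.49 in WT replicate 1 and listed at 0 in WT replicate 2, and was 71.2 in G34W replicate 1 and 0.95 in G34W replicate 2. Its mean over the 4 libraries other than G34W replicate 1 was 1.61, so no test is given for it. IL24 was 37.4 and 22.1 in G34W, 85.4 and 80.9 in WT and 16.8 in EV replicate 2, and its difference between G34W and WT was -1.5 (SE 0.71, limma adjusted p 0.9998). PTGS2, the inducible prostaglandin synthase, is named because its unadjusted p was the lowest of these lists. It was 429 and 578 in G34W, 1058 and 1113 in WT and 893 in EV replicate 2, a difference of -1.12 from WT (SE 0.30, unadjusted p 0.00457, limma adjusted p 0.9998). Both G34W libraries were below the other 3, as for 8 of the 81 genes tested of the 4 lists (9.88%) and 9.55% of all genes.

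Receptors and decoys of IL-1 and chemokines made up the last list, of which 26 of 27 symbols were found and 13 were tested, with a median of -0.14 (0.056 without G34W replicate 1). IL7R, the receptor of IL-7, was 1275 and 1469 in G34W, 2115 and 3071 in WT and 2202 in EV replicate 2. The difference between G34W and WT was -0.90 (SE 0.28, unadjusted p 0.0108, limma adjusted p 0.9998), and its unadjusted p was 0.132 without WT replicate 2 and 0.0607 without G34W replicate 1. IL1RL1, the receptor of IL-33, was 131 in G34W replicate 1 and between 5.28 and 15.2 in the other 4 libraries. Its mean over these 4 was 9.22, below the minimum, so no test is given for it either.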

How the data were processed

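Reads were quantified by the authors with kallisto (Ensembl GRCh38 transcripts), summarised to genes by tximport and normalised in DESeq2. The deposited values are the resulting normalised signal and are not whole reads. No depth was worked out from them. Members and lists were chosen with earlier results of these data known. Genes with a mean of at least 10 over the 5 libraries were fitted on log2(value + 1) with limma 3.58.1 in R 4.3.3, with a variance trend and Benjamini-Hochberg adjustment over all genes tested, at a threshold of 0.05. The pseudocount makes differences of low genes too small. The fit was tested on simulated data. EV replicate 1 was left out. Members are given in full when past the threshold, when G34W and WT libraries did not overlap with a log2 difference of at least 0.58, when libraries differed at least 4-fold, or when among 9 reference genes; of each pathway list, the 2 genes with the largest difference between G34W and WT are given. PTGS2, EFNA1, MAP3K8, CXCR2 and LTB were added after their values were seen. Alternatives were another pseudocount, no filter, no variance trend, a replicate block, rescaled libraries and leaving out each library. Transcript lengths came from GENCODE on GRCh37, found for 99.05% of genes tested. Coordinates and promoter windows came from RefSeq on GRCh38.p14. IL15RB was not matched, and IRAK4 was matched by its identifier. Figures were drawn with matplotlib 3.10.9.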

Additional observations from a re-analysis of the deposited data

Results flagged for a closer look

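The column of EV replicate 1 was used in no comparison. Of the 42 member identifiers, 11 were above 0 in it, and 8 of these were above the highest of the other 5 libraries, which is why they are listed. NFKB2 was 131449, TNFRSF1A 122009.9, RELA 55414, BIRC3 32309, CXCL12 16803, IL18 4108, CCL5 1454 and REL 635. The member identifiers on chromosomes 10, 11 and 12 were 6 (NFKB2, CXCL12, RELA, BIRC3, IL18 and TNFRSF1A), and all 6 are among the 8. Against EV replicate 2, CXCL12 was 23.3 times as high, while CCL5 was 1.75 times and REL 1.19 times. The whole column was also larger, with a sum over all genes of 157595150 units, against 41985190 in EV replicate 2. SOD2 (ENSG00000112096), IL15 and TLR3 were above 0 but below the other libraries, at 285, 70.5 and 6.42. The other members were listed at 0.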

How the results depend on the processing

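Over all genes, G34W against WT gave 0 calls at the main setting and 0 to 13 when single libraries were left out, WT against EV 0 to 3, and G34W against EV 0. Members gave 0 calls at an adjusted p under 0.05 in each comparison under every alternative run. At an unadjusted p under 0.05, alternatives that kept all 5 libraries gave 0 to 2 members in G34W against WT, beside 1.9% to 4.4% of all genes. They gave 0 to 2 in G34W against EV, beside 1.59% to 2.74%, and 0 to 1 in WT against EV, beside 0.812% to 2.32%. The count in G34W against WT moved further when single libraries were left out. Where an arm was left with 1 library, it was assumed to vary like the other groups. The member median of G34W against WT was -0.58 to 0.19 over single libraries left out, and that of G34W against EV -0.42 to 0.33. Without the filter on low values, 2 members instead of 1 had both G34W libraries above WT, since CXCL14 then entered. The methods do not state whether same-numbered libraries were handled together. The deviations of same-numbered WT and G34W libraries correlated at r = 0.0945 across 16259 genes. This cannot decide the question, because each group gives a single difference per gene and G34W replicate 1 stood apart. With a replicate block, 0 genes were called in each comparison and the member median of G34W against WT was -0.17, as a block common to both groups leaves it, while that of G34W against EV turned from -0.07 to 0.098 and that of WT against EV went from 0.09 to 0.34; with an unadjusted p under 0.05 the block gave 715 genes in G34W against WT, against 439 without it. Of 24 single gene differences, 16 kept their sign in every alternative and 8 did not. Leaving out single libraries gave -0.58 to 0.034 for NFKBIA, -0.065 to 0.23 for CXCL12, -0.94 to 1.55 for CCL7, -0.65 to 0.42 for IL1R1, -1.18 to 0.93 for VCAM1, -0.90 to 1.91 for CXCL5 and -0.66 to 0.011 for RELA (G34W against WT), and -0.19 to 0.056 for CSF2 (WT against EV). The cause was not tested.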

Other observations

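EV is represented by 1 library, and G34W and WT by 2 each, of which G34W replicate 1 holds pluripotency markers. The labels contradict each other on which libraries are WT and which are G34W, and no gene of the table was used to settle it. Depth is unknown, so no interval from counts was given. RNA levels of cytokine genes do not measure secreted protein, and NF-kB activity is set largely by degradation of inhibitors and movement of subunits, which mRNA values do not show. Transcripts of CXCL1, CXCL2 and CXCL3 share sequence. ChIP and culture experiments of the study were not analysed here.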
